A study of Homo sapiens with 96 samples.

Results

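The genes described here encode extracellular matrix, measured in the human breast cancer line MDA-MB-231: laminins, collagens, matrix glycoproteins, proteoglycans, hyaluronan genes and lysyl oxidase-like crosslinkers. They were taken from a list of 45 gene symbols, of which 43 had a probe set that the platform annotation pairs with 1 symbol, out of 11874 genes so measured in the series. These 43 genes had 106 of the 22292 probe sets tested, and 31 of them had several probe sets, which are given apart. LAMA3 and COL12A1 were not analysed here.

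RNA was measured on 96 Affymetrix arrays, 32 from 3D culture (series 3D04) and 64 from 2D culture (series 2D03 and 2D04, 32 each). Cells were starved in low serum for 24 h once they had reached 80% confluence, and were then either left untreated (control), given 10 ng/ml EGF at 0 h (EGF), or given the same EGF after 30 min with 10 uM U0126, an inhibitor of the kinase MEK (U0126), or with its vehicle (DMSO-EGF). At 0 h each series also had 1 array of cells given U0126 and 1 given DMSO, both with no EGF. Arrays were taken at 0, 0.5, 1, 4, 8, 12, 24 and 48 h, with 1 array per arm and time after 0 h in 3D and 2 in 2D, 1 per series. All arms thus share the low serum, and all cells are 1 line. U0126 was the only inhibitor, so an effect through MEK and one through another target of U0126 cannot be told apart. The labels do not name the substrate of the 3D culture, and they do not say whether repeats are separate cultures, so p-values measure the spread between these arrays.

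Values are the deposited ones, presumed to be log2 and centred on an unknown reference per probe set. Differences between arrays are given, a fold change assumes log2, and no absolute level can be given. Of the line's own marker lists, 25 probe sets of mesenchymal and basal genes averaged 1.12 to 1.20 in 3D controls and 1.18 to 1.46 in 2D controls. The 23 luminal epithelial probe sets averaged -1.65 to -1.52 in 3D controls and -1.64 to -1.47 in 2D controls. Fibroblast, leukocyte and endothelial markers (15, 9 and 9 probe sets) averaged between -0.29 and 0.27 in every control array. Because each RNA sample is a bulk one, fewer cells of a type and less RNA per cell cannot be told apart.

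Laminins are trimers of an alpha, a beta and a gamma chain that polymerise under epithelial cells and, with type IV collagen, form the basement membrane. Fibrillar collagens, fibronectin and fibrillins build the interstitial matrix, lysyl oxidases crosslink it, and hyaluronan fills it. MEK activates the kinases ERK1 and ERK2, which act on transcription factors of the AP-1 and ETS families. In breast cancer cells matrix genes are commonly linked to invasion and to the mesenchymal state.

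A pair of promoters is shown because the genes moved below: COL4A1 and COL4A2, the chains of the main type IV collagen, which lie head to head, and LAMB3, the beta chain of laminin-332. The sequences are RefSeq windows of GRCh38.p14, from 250 bases before to 50 bases after the start, read 5′ to 3′ on the gene's own strand. The COL4A1 window is chr13:110307108-110307407 on the minus strand, and its capitals mark the 226 bases it shares with the COL4A2 window, whose start lies 127 bases away. The LAMB3 window is chr1:209651325-209651624 on the minus strand, for 1 of the 3 starts listed. It was chosen because it holds an AP-1 motif (TGANTCA), which the windows of the other listed LAMB3 starts do not. Its capitals mark this motif, which begins 67 bases before the start.
COL4A1: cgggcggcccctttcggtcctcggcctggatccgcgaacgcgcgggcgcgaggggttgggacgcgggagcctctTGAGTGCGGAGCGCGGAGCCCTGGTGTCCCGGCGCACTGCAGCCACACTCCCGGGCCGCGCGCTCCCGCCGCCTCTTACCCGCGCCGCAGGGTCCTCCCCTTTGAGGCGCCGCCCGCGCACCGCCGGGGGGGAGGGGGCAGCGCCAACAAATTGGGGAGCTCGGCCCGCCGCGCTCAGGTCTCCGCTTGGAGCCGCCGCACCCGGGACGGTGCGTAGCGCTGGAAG
LAMB3: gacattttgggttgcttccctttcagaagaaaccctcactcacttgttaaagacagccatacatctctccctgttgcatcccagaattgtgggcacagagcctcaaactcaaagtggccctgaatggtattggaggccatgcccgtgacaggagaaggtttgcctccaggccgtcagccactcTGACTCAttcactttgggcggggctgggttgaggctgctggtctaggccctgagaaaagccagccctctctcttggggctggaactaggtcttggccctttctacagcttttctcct
Windows were listed for 31 of the 43 measured genes, 35 in all. Searched on both strands, TGANTCA was present in 2 of the 35 (5.71%), those of LAMB3 and POSTN, and in 7.71% of all 35116 windows. The ETS motif CCGGAAGT was in 0 of the 35 and in 4.14% of all windows. These motifs do not overlap each other. A match describes the letters of a window only.

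The first question was how untreated 3D and 2D cells differ. Much of the basement membrane set, fibronectin, the collagens XIII and XVIII and the hyaluronan-degrading factor CEMIP were higher in 3D controls, and thrombospondin 1 was lower. In the fit of 27 control arrays, 9 per series, with series and time as terms, 63 of 106 probe sets passed an adjusted p of 0.05, 45 higher and 18 lower, over 33 genes. Over all probe sets tested 48.1% passed, 23% higher and 25.1% lower, against 59.4% of the members. The total of members lies near the background, but its split does not: more members were higher, while over all probe sets slightly more were lower. The median difference was 0.03 over the members and -0.03 over all probe sets. In the same comparison 11 of the 25 mesenchymal and basal probe sets were lower and 1 higher (median -0.10), and 5 of the 15 fibroblast probe sets were lower and 1 higher (median -0.08). Of the 23 luminal epithelial ones 4 were lower and 2 higher, of the 9 leukocyte ones 3 lower and 0 higher, and of the 9 endothelial ones 3 lower and 2 higher. The part of these markers in the culture result was not tested. Against 2D03 alone 66 members passed (38 higher, 28 lower), where 59% of all probe sets did, and against 2D04 alone 48 (40 higher, 8 lower), where 28.3% did. All 3D arrays belong to 1 series, and the 2D series differ from each other: 44 members passed in 2D04 against 2D03, 11 higher and 33 lower, where 47.1% of all probe sets passed. Beyond the comparison with each 2D series, culture and series cannot be told apart. With series as a random block 19 members passed, all of them higher, and no lower member did. These 19 were CEMIP, COL18A1, COL13A1, COL6A1, FN1, COL4A1, COL4A2, LAMA5, LAMB3, LOXL1 and LOXL2 probe sets. The share of all probe sets that passed in that fit is not given here, so the 19 have no background beside them. That fit still had 1 series of 3D.

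In 10 member probe sets (9.43%) all 9 3D controls lay above all 18 2D controls, against 1.27% of all probe sets. They were those of CEMIP, COL18A1 (both probe sets), COL6A1, COL13A1, LAMB3, COL4A2, FN1, LOXL1 and LOXL2. In 0 members all 3D controls lay below all 2D controls, against 1.38% of all probe sets.

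**Figure D1:**
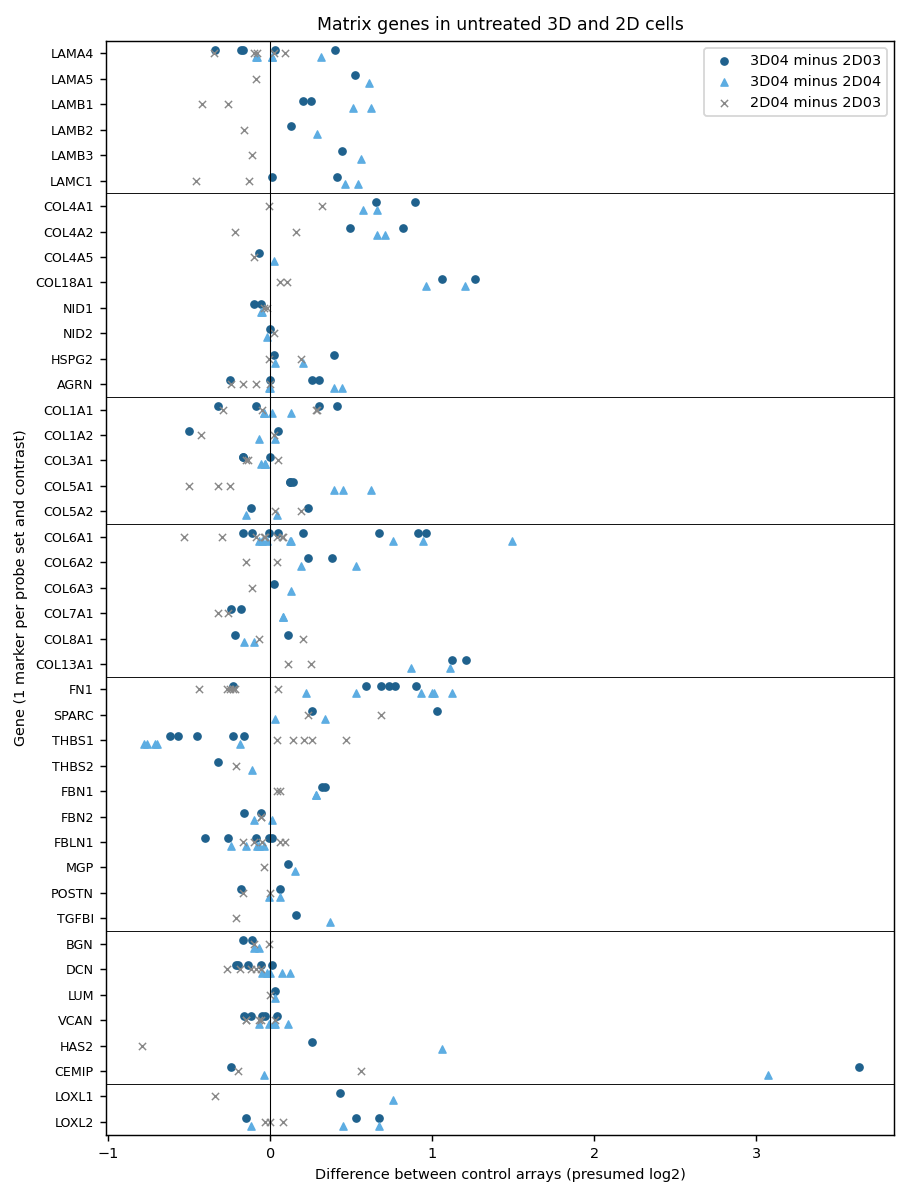
Differences between untreated control arrays of each pair of series, on a presumed log2 axis, for each gene with 1 marker per probe set; lines separate the roles. CEMIP lies farthest to the right, at 3.63 against 2D03 and 3.07 against 2D04, and most proteoglycan and NID markers lie near 0.

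Of the laminin chains 12 probe sets were measured, of which 8 were higher in 3D and 2 were lower. LAMB3 on 209270_at read 2.95, 3.05 and 3.34 (lowest, median and highest of 9) in 3D04 controls, against 2.49, 2.62 and 2.82 in 2D03 controls and 2.39, 2.47 and 2.86 in 2D04 controls. No array of the 3D series overlapped those of 2D. The difference was 0.50 (SE 0.06, 1.41-fold, limma adjusted p = 2.3e-07), and 0.10 between the U0126 arms of the cultures (limma adjusted p = 0.48). LAMA5, the alpha chain of laminin-511, read 0.18, 0.32 and 1.04 in 3D04 controls, against -0.62, -0.01 and 0.25 in 2D03 and -0.62, -0.18 and 0.28 in 2D04 controls. Its groups overlapped, and it stood 0.56 higher (SE 0.07, limma adjusted p = 3.1e-07).

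The common gamma chain LAMC1 was 0.48 higher on 200771_at (SE 0.07) and 0.23 higher on 200770_s_at (SE 0.05). On the second of these 3D04 stood 0.01 above 2D03, against 0.46 above 2D04. LAMB1, the classical beta chain, was 0.38 and 0.41 higher on its probe sets (SE 0.12 and 0.11), and neither passed against 2D03 alone (limma adjusted p = 0.11 and 0.18). Its relative LAMB2 was 0.21 higher (SE 0.06), also without passing against 2D03 alone (limma adjusted p = 0.091). LAMA4, an alpha chain of vessel and muscle laminins, disagreed among its 5 probe sets, which ran between -0.16 and 0.35.

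Among 16 probe sets for type IV collagen and basement membrane linkers 9 were higher in 3D and 1 was lower. COL4A2 on 211964_at read 2.10, 2.18 and 2.35 in 3D04 controls, against 1.16, 1.31 and 1.69 in 2D03 and 1.20, 1.41 and 2.01 in 2D04 controls. The 3D arrays did not overlap the 2D ones, and the difference was 0.74 (SE 0.08, 1.67-fold, limma adjusted p = 7.3e-08). COL4A1 on 211980_at read 1.41, 1.69 and 1.88 in 3D04 controls, against 0.36, 0.69 and 1.27 in 2D03 and 0.85, 1.08 and 1.44 in 2D04 controls. The highest 2D04 array reached into the 3D range, and the difference was 0.73 (SE 0.08, limma adjusted p = 1.7e-07). The second probe sets of these neighbours stood 0.60 (COL4A2) and 0.65 (COL4A1) higher.

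COL18A1, the basement membrane collagen whose end fragment is endostatin, was 1.23 higher on 209082_s_at (SE 0.09, 2.35-fold, limma adjusted p = 7.2e-11). That probe set read 1.19, 1.36 and 1.44 in 3D04 controls, against -0.35, 0.11 and 0.44 in 2D03 and -0.17, 0.02 and 0.95 in 2D04 controls. Its other probe set gave 1.01 (SE 0.08). The heparan sulfate proteoglycans HSPG2 (perlecan) and AGRN (agrin) reached 0.30 and 0.35 at most, with other probe sets at 0.02 for HSPG2 and at -0.13 for AGRN. NID1, NID2 and COL4A5 ran between -0.08 and -0.01 and did not pass.

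Fibrillar collagens were divided, with 6 of 14 probe sets higher and 4 lower in 3D, and a median of 0.00. COL5A1, which sets fibril diameter, was higher on 3 of 3 probe sets, between 0.27 and 0.37. Against 2D04 alone it stood 0.39 to 0.62 higher, and against 2D03 alone 0.12 to 0.14. COL5A1 on 203325_s_at and 212488_at did not pass against 2D03 alone (limma adjusted p = 0.27 and 0.1). COL1A2 fell by 0.29 on 202403_s_at (SE 0.05) and stood at 0.04 on its other probe set. In COL1A2 the 3D controls read -0.53, -0.28 and -0.04, against -0.12, 0.30 and 0.39 in 2D03 and -0.43, -0.15 and -0.01 in 2D04 controls. The 3D arrays overlapped those of 2D04, and the difference did not pass against 2D04 alone (-0.07, limma adjusted p = 0.42).

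Of 17 probe sets for other collagens 8 were higher and 1 was lower. COL13A1, a transmembrane collagen of cell adhesion, read 2.62, 2.72 and 3.20 on 211809_x_at in 3D04 controls, against 1.05, 1.56 and 2.17 in 2D03 and 1.35, 1.5 and 2.69 in 2D04 controls. The highest 2D04 array lay within the 3D range, and the mean difference was 1.16 (SE 0.07, 2.23-fold, limma adjusted p = 1.3e-11). COL13A1 on 211343_s_at differed by 0.99 (SE 0.07) without overlap.

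COL6A1, a chain of beaded microfibrils, had 8 probe sets that disagreed. On 213428_s_at it read 2.09, 2.15 and 2.37 in 3D04 controls, against 0.91, 1.03 and 1.90 in 2D03 and 0.23, 0.54 and 1.66 in 2D04 controls. There the groups did not overlap and the difference was 1.23 (SE 0.09, limma adjusted p = 1.3e-10). Others of its probe sets gave 0.92 and 0.71, and the remaining 5 lay between -0.09 and 0.16.

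**Figure D2:**
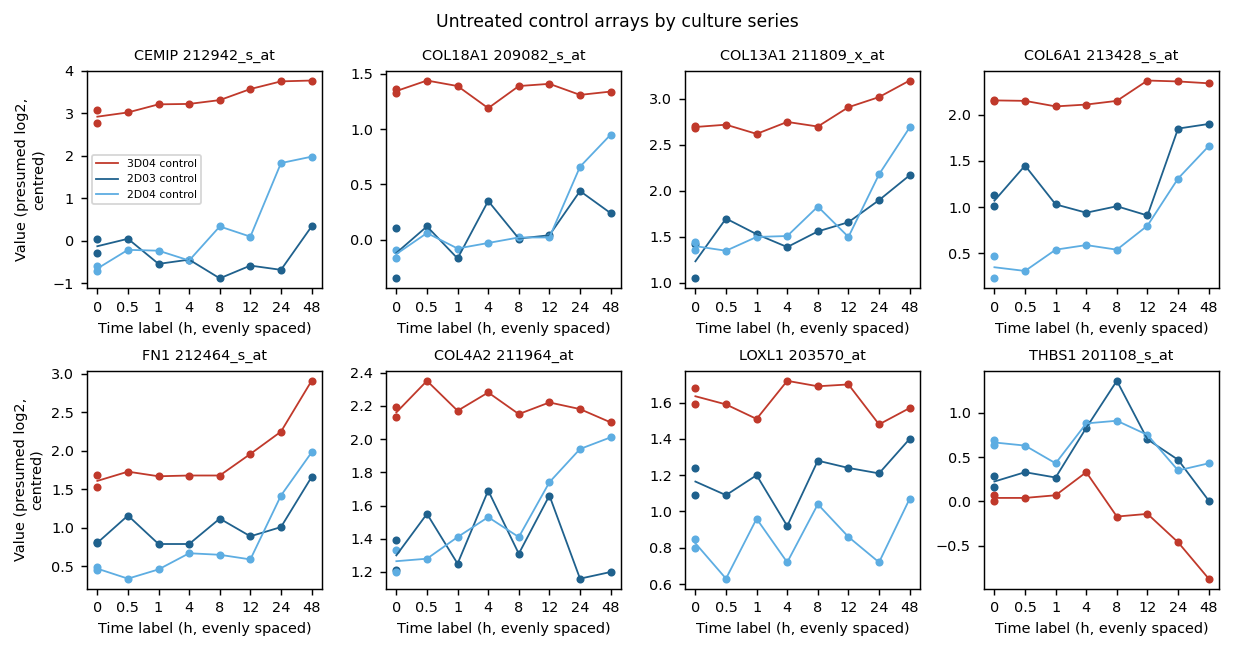
Values of untreated control arrays (presumed log2, centred) at each time label, evenly spaced, for 8 member probe sets; points are arrays and lines join the means at a time, for 3D04 and the series 2D03 and 2D04. CEMIP in 3D04 lies between 2.77 and 3.77, above every 2D array, and thrombospondin 1 (THBS1) in 3D04 overlaps 2D03 and lies below 2D04.

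Of 27 matrix glycoprotein probe sets 9 were higher in 3D and 8 were lower. FN1, fibronectin, passed on 5 of 6 probe sets with differences between 0.56 and 1.01, while 214701_s_at stood at 0.00. On 212464_s_at it read 1.53, 1.69 and 2.91 in 3D04 controls, against 0.79, 0.89 and 1.66 in 2D03 and 0.34, 0.59 and 1.98 in 2D04 controls. The 48 h array of 2D04 and the highest of 2D03 reached the lower 3D ones, and the difference was 1.01 (SE 0.08, 2.01-fold, limma adjusted p = 1.8e-10). SPARC, a collagen-binding matricellular protein, read 1.22, 1.91 and 2.17 on 200665_s_at in 3D04 controls, against 0.20, 0.73 and 1.89 in 2D03 and 0.89, 1.53 and 1.96 in 2D04 controls. Its ranges overlapped. It stood 0.69 higher (SE 0.13), or 0.34 against 2D04 alone (limma adjusted p = 0.098), and 212667_at gave 0.14 (limma adjusted p = 0.2).

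THBS1, a matricellular glycoprotein that activates latent TGF-beta, was lower in 3D on 4 of 5 probe sets, by 0.47 to 0.69. On 201108_s_at it read -0.87, 0.01 and 0.33 in 3D04 controls, against 0.01, 0.33 and 1.36 in 2D03 and 0.35, 0.64 and 0.91 in 2D04 controls. All 3D arrays lay below those of 2D04 and overlapped those of 2D03. The difference was -0.69 (SE 0.09, limma adjusted p = 1.2e-06) and lay between -1.53 and -0.18 over the 16 pairings of time and 2D series. In cells given U0126 the same contrast was -0.10 (limma adjusted p = 0.58).

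FBN1, the main microfibril protein, was 0.30 and 0.31 higher, and TGFBI, a secreted integrin ligand, 0.26 higher. TGFBI stood 0.37 higher against 2D04 alone and did not pass against 2D03 alone (0.16, limma adjusted p = 0.11). FBLN1, which binds fibronectin and laminin, was 0.32 lower on 201787_at (SE 0.05). That FBLN1 probe set read -0.49, -0.13 and -0.05 in 3D04 controls, against -0.03, 0.25 and 0.60 in 2D03 and -0.19, 0.06 and 0.26 in 2D04 controls. Its ranges overlapped with 2D04, and 3 of its 5 probe sets did not pass.

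The largest difference of any member was that of CEMIP, a protein needed for hyaluronan breakdown. On 212942_s_at it read 2.77, 3.22 and 3.77 in 3D04 controls, against -0.88, -0.44 and 0.34 in 2D03 and -0.71, -0.21 and 1.98 in 2D04 controls. The groups did not overlap, and the difference was 3.35 (SE 0.20, 10.2-fold, limma adjusted p = 4.5e-12). It was 1.79 to 4.43 in the 16 pairings of time and 2D series, and 3.28, 3.40 and 3.52 in the EGF, DMSO-EGF and U0126 arms. Its other probe set, 215140_at, stood at -0.14 (SE 0.06, limma adjusted p = 0.077). HAS2, which makes hyaluronan, read 1.05, 1.25 and 1.77 in 3D04 controls, against 0.20, 1.01 and 1.82 in 2D03 and -0.13, 0.31 and 0.69 in 2D04 controls. It overlapped 2D03 and not 2D04. The mean difference of 0.66 (SE 0.10) was made of 0.26 against 2D03 (limma adjusted p = 0.063) and 1.06 against 2D04 (limma adjusted p = 3.8e-07), while 2D04 minus 2D03 was -0.79.

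The crosslinkers LOXL1 and LOXL2, which oxidise lysines of collagen and elastin, were higher in 3D on 3 of 4 probe sets, while LOXL2 on 202999_s_at was lower (-0.13, SE 0.04, limma adjusted p = 0.015). LOXL1 read 1.48, 1.59 and 1.72 in 3D04 controls, against 0.92, 1.21 and 1.40 in 2D03 and 0.63, 0.85 and 1.07 in 2D04 controls. LOXL2 on 202998_s_at read 3.04, 3.18 and 3.62 in 3D04 controls, against 2.25, 2.56 and 2.79 in 2D03 and 2.39, 2.58 and 2.87 in 2D04 controls. Neither overlapped, and the differences were 0.60 for LOXL1 (SE 0.05, limma adjusted p = 5.5e-10) and 0.67 for LOXL2 (SE 0.08, limma adjusted p = 3.2e-07).

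The stromal proteoglycans and related genes LUM, DCN, VCAN, BGN, POSTN, NID1, NID2, MGP, FBN2 and COL3A1 varied little. Their 24 probe sets had SDs between 0.08 and 0.17 over the 96 arrays, against a median of 0.21 for all members and 0.191 for all probe sets. This set was chosen after its values were seen.

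Untreated 2D cells also changed over time. Between 0 h (4 arrays) and the late window of 24 and 48 h (4 arrays), 9 member probe sets rose and 0 fell, where 3.65% of all probe sets passed, 1.93% higher and 1.71% lower. The 9 were those of COL18A1, COL13A1, 3 probe sets of COL6A1 and 4 of FN1, which were also among those higher in 3D. FN1 rose by 0.80 to 0.89 on those 4 probe sets (SE 0.16 to 0.18), COL13A1 by 0.92 on 211809_x_at (SE 0.14, limma adjusted p = 9.0e-05) and COL6A1 by 0.54 to 0.97. The calls did not hold in each series: 0 members passed in 2D03 alone and 17 in 2D04 alone. The shares of all probe sets in these fits are not given here, so too few arrays and a lack of change in 2D03 cannot be told apart. For CEMIP the change was 2.55 in 2D04 and -0.05 in 2D03, and 0.84 in the 3D series, where it could be compared with 2 arrays at 0 h. For COL18A1 on 209082_s_at the 3D series stood 0.39 above 2D04 at 48 h and 1.48 above it at 0 h. In that 2D drift the calls of COL6A1 were also lost without single arrays, with adjusted p of 0.061 to 0.11 in limma, and so was that of COL18A1 (0.063 and 0.13).

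The second question was what U0126 changed in cells that also received EGF. Up to 1 h no member passed. Of the 106 probe sets 0 passed in the early window (0.5 and 1 h) of 3D, where 0.287% of all probe sets did (0.0224% higher, 0.265% lower), and 0 in that of 2D, where 0.00897% did. An unadjusted limma p under 0.05 was reached by 0 members in either culture, against 1093 of the 22292 probe sets in 3D and 248 in 2D.

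By the late window (24 and 48 h) the laminin chains LAMB1 and LAMB3, COL4A2, COL13A1, HAS2 and LOXL2 were lower with U0126 in both cultures. FBN1, FBLN1, THBS1, TGFBI, LAMB2, HSPG2 and COL5A1 were higher. Each of these genes passed on at least 1 probe set. The 2D calls of COL4A2, HAS2, LOXL2, HSPG2, COL5A1, THBS1 and TGFBI were lost without single arrays, as given below. In 3D 22 members passed in the middle window (4, 8 and 12 h), 12 higher and 10 lower, against 12.7% of all probe sets (5.76% higher, 6.92% lower). Leaving out 8 h gave 12 and leaving out 12 h gave 10. In 2D 10 passed there, 5 higher and 5 lower, against 6.5% (1.79% higher, 4.71% lower), and 16 with the replicate block. The 2D03 U0126 arrays at 8 and 12 h had a low 5′ against 3′ signal of the actin control (-1.26 and -1.08, where the other 94 arrays lay between -0.36 and 0.31). With these 2 left out 11 members passed in the 2D middle window, while the count over all probe sets was 541, against 1448 with them, and 2D04 alone gave 20 members. The shares of all probe sets with the replicate block and in 2D04 alone are not given here. In the late window 44 members passed in 3D, 24 higher and 20 lower, against 34.9% of all probe sets (18.7% higher, 16.2% lower). In 2D 20 passed late, 12 higher and 8 lower, against 10.4% (5.38% higher, 5.02% lower). Unless stated, the 2D calls and their losses without single arrays come from the fit without the replicate block. The spread was estimated differently in the 2 cultures, so the counts of 3D and 2D do not compare the size of the effects. The 3D late count was 41.5% of the members and lay near its background. The median member change was 0.02 in 3D late and 0.03 in 2D late, with 0.03 and 0.00 over all probe sets.

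All 20 members called late in 2D were called late in 3D with the same sign, 12 higher and 8 lower, and made up 20 of the 44 (45.5%). Over all probe sets 2003 of the 2320 called late in 2D (86.3%) were called late in 3D with the same sign, 25.8% of those called there. Of the 45 members that were higher in 3D controls, 19 were lower (42.2%) and 16 higher (35.6%) with U0126 in 3D late, against 29.3% and 28.2% over all probe sets higher in 3D controls. Of the 18 that were lower in 3D controls, 5 were higher (27.8%) and 0 lower, against 19.9% and 15.1% over all such probe sets.

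**Figure D3:**
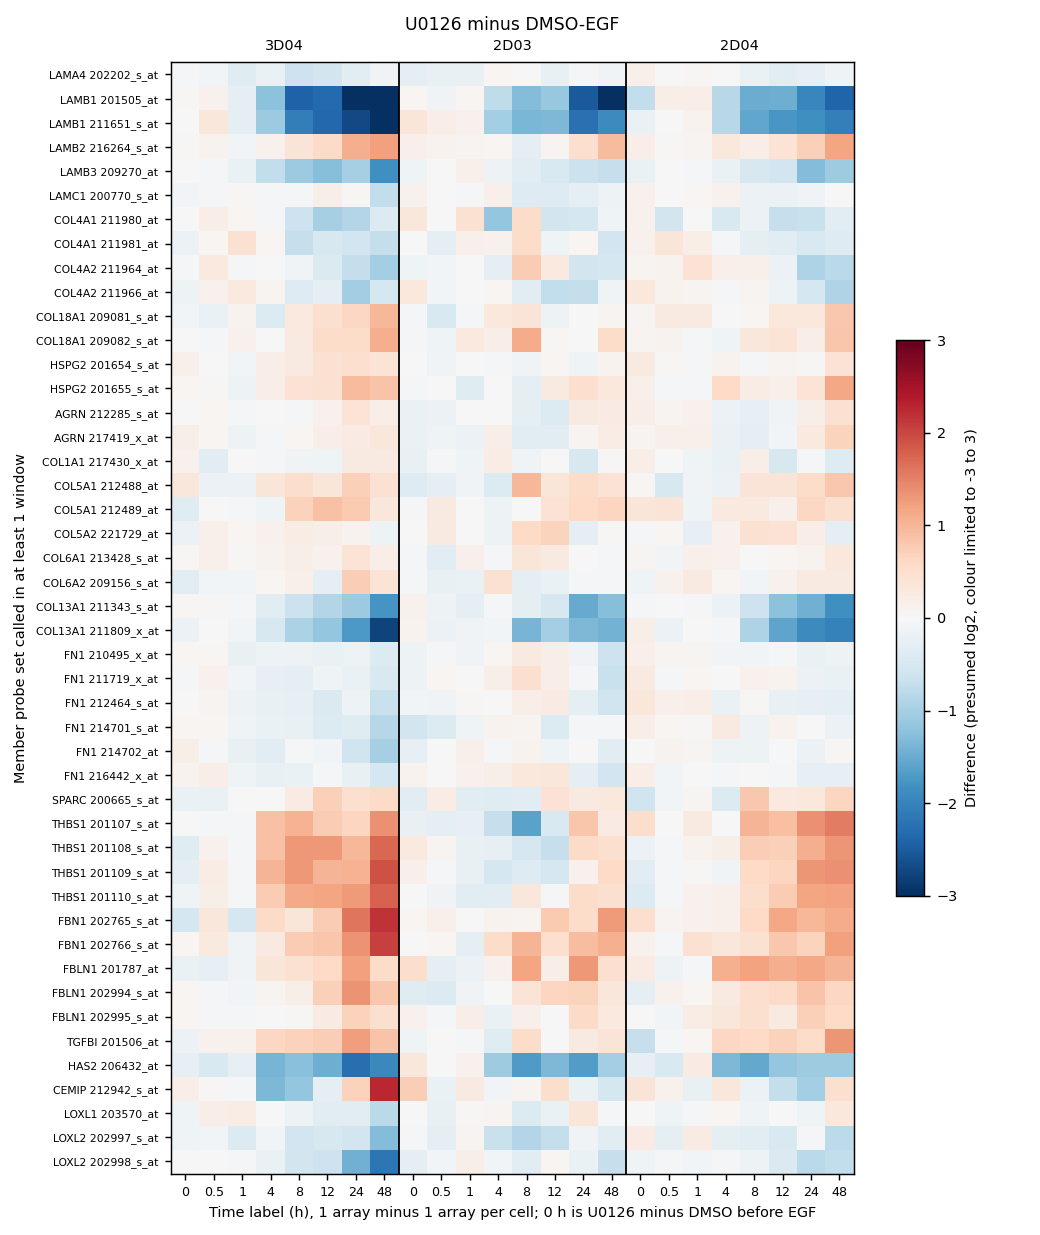
U0126 minus DMSO-EGF (presumed log2; red higher, blue lower, colour limited to -3 to 3) at each time label in 3D04, 2D03 and 2D04, for the member probe sets called in at least 1 window; each cell is 1 array minus 1 array, and 0 h is U0126 minus DMSO. LAMB1 is the deepest blue, at -4.02 in 3D04 at 48 h, and FBN1, FBLN1 and THBS1 turn red late.

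LAMB1 fell most. On 201505_at it read -2.91 and -3.45 with U0126 at 24 and 48 h in 3D, against 0.35 and 0.57 with DMSO-EGF. In 2D03 it read -3.32 and -3.65 against -0.81 and -0.65, and in 2D04 -2.69 and -2.81 against -0.73 and -0.41. The arms lay far apart in all 3 series, and U0126 minus DMSO-EGF was -1.24, -2.42, -2.33, -3.26 and -4.02 at 4, 8, 12, 24 and 48 h in 3D. The late change was -3.64 in 3D (SE 0.24, 12.5-fold lower, limma adjusted p = 1.2e-09) and -2.47 in 2D (SE 0.25, 5.53-fold lower, limma adjusted p = 3.2e-09). Over 4 to 12 h it was -2.0 in 3D (SE 0.19) and -1.16 in 2D (SE 0.20). LAMB1 on 211651_s_at gave -3.13 in 3D late and -2.01 in 2D late.

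LAMB2 moved the other way. It read 1.33 and 1.80 with U0126 at 24 and 48 h in 3D, against 0.24 and 0.57 with DMSO-EGF. The 2D values were 0.17 and 0.72 (2D03) and 0.65 and 1.36 (2D04) with U0126, against -0.33 and -0.24 (2D03) and -0.07 and 0.17 (2D04) with DMSO-EGF. Every pair was higher with U0126, by 1.16 in 3D late (SE 0.11, limma adjusted p = 1.4e-07) and by 0.84 in 2D late (SE 0.15, limma adjusted p = 1.4e-04).

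LAMB3 was lower late, at 2.23 and 1.56 with U0126 in 3D, against 3.23 and 3.41 with DMSO-EGF. In 2D cells it read 1.79 and 1.94 (2D03) and 1.38 and 1.76 (2D04) with U0126, against 2.43 and 2.64 (2D03) and 2.67 and 2.83 (2D04) with DMSO-EGF. The arms did not overlap in any series. The change was -1.42 in 3D late (SE 0.17, limma adjusted p = 2.4e-06) and -0.92 in 2D late (SE 0.15, limma adjusted p = 2.3e-05). The middle window gave -1.04 in 3D (SE 0.14) and -0.36 in 2D (SE 0.12, limma adjusted p = 0.065, or 0.0037 with the replicate block). LAMA5 did not pass in any window, and LAMC1 passed on 200770_s_at in 3D late only (-0.35, SE 0.13), where the value was 0.03 without the 48 h arrays.

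COL4A1 and COL4A2 were lower late in 3D on all 4 of their probe sets, and the type IV chain COL4A5 stood at 0.13 (limma adjusted p = 0.54). COL4A2 on 211964_at read 1.56 and 1.06 with U0126 at 24 and 48 h in 3D, against 2.28 and 2.08 with DMSO-EGF. Its 2D values were 0.67 and 0.68 (2D03) and 0.98 and 1.35 (2D04) with U0126, against 1.21 and 1.21 (2D03) and 1.90 and 2.16 (2D04) with DMSO-EGF. It was lower with U0126 in all 6 pairs, with a change of -0.87 in 3D late (SE 0.12, limma adjusted p = 1.6e-05) and -0.70 in 2D late (SE 0.19, limma adjusted p = 0.013). The 2D call was lost when any of 4 single arrays was left out: without the 48 h DMSO-EGF array of repeat 2 it was -0.46 (limma adjusted p = 0.18), and without the 24 h one -0.53 (limma adjusted p = 0.12). Without the 24 h or the 48 h U0126 array of repeat 1 it was -0.62 (limma adjusted p = 0.068) and -0.53 (limma adjusted p = 0.12).

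COL4A1, from the shared promoter region printed above, read 0.64 and 0.58 on 211980_at with U0126 in 3D late, against 1.51 and 1.0 with DMSO-EGF. Its change was -0.65 there (SE 0.21, limma adjusted p = 0.023) and -0.42 in 2D late (SE 0.22, limma adjusted p = 0.29). Without the 24 h arrays the 3D value was -0.42 (limma adjusted p = 0.37), and without the 48 h arrays -0.87 (limma adjusted p = 0.051). The 3D call was also lost for COL4A1 on 211981_at without 48 h (-0.57, limma adjusted p = 0.051) and for COL4A2 on 211966_at without 24 h (-0.53, limma adjusted p = 0.06). With array weights neither COL4A1 probe set passed (limma adjusted p = 0.11 and 0.072).

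Other basement membrane genes were higher with U0126 late in 3D. HSPG2 on 201655_s_at read 1.76 and 1.75 there, against 0.82 and 0.90 with DMSO-EGF, a change of 0.89 (SE 0.10, limma adjusted p = 7.7e-07). It changed by 0.60 in 2D late (SE 0.18, limma adjusted p = 0.028), but by 0.28 without the 48 h U0126 array of repeat 2 (limma adjusted p = 0.43), and the call was also lost without its 24 h array or either DMSO-EGF array of repeat 1 (0.46 to 0.50, limma adjusted p = 0.15 to 0.17). COL18A1 rose by 0.80 and 0.82 in 3D late. On 209082_s_at it read 1.93 and 2.45 with U0126, against 1.39 and 1.35 with DMSO-EGF. Without the 48 h arrays it was 0.54 on that probe set (limma adjusted p = 0.018) and 0.62 on 209081_s_at (limma adjusted p = 0.19). AGRN was higher by 0.29 and 0.30 on 2 of 4 probe sets. Neither COL18A1 nor AGRN passed in 2D late, or in the late test of the 3D effect minus the 2D effect.

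Among the other collagens COL13A1 fell in both cultures. On 211809_x_at it read 1.33 and 0.48 with U0126 at 24 and 48 h in 3D, against 3.05 and 3.26 with DMSO-EGF. In 2D it read 0.30 and 0.66 (2D03) and 0.03 and 0.52 (2D04) with U0126, against 1.65 and 2.08 (2D03) and 1.94 and 2.54 (2D04) with DMSO-EGF. These U0126 arrays lay below the DMSO-EGF arrays of their series. The change was -2.25 in 3D late (SE 0.21, 4.76-fold lower, limma adjusted p = 1.1e-07) and -1.67 in 2D late (SE 0.14, 3.19-fold lower, limma adjusted p = 3.9e-11). Between 4 and 12 h it was -0.86 in 3D (SE 0.17) and -0.84 in 2D (SE 0.12). COL5A1 was higher by 0.56 and 0.59 on 2 of 3 probe sets in 3D late and by 0.58 on 1 of 3 in 2D late. With the replicate block all 3 passed in 2D late, the others at 0.68 on 203325_s_at (limma adjusted p = 0.0015) and 0.58 on 212488_at (limma adjusted p = 0.0056). On COL5A1 212489_at both calls depended on single arrays or times, with 0.34 in 3D without 24 h (limma adjusted p = 0.38) and 0.55 to 0.57 in 2D without 1 of 4 arrays (limma adjusted p = 0.064 to 0.073).

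FBN1 rose with U0126. On 202765_s_at it read 2.62 and 3.45 at 24 and 48 h in 3D, against 1.01 and 1.29 with DMSO-EGF. The 2D arrays read 1.14 and 2.02 (2D03) and 1.78 and 2.01 (2D04) with U0126, against 0.60 and 0.74 (2D03) and 0.79 and 0.90 (2D04) with DMSO-EGF. All late U0126 arrays lay above the DMSO-EGF arrays of their series. The change was 1.89 in 3D late (SE 0.16, 3.69-fold, limma adjusted p = 4.1e-08) and 0.98 in 2D late (SE 0.14, 1.97-fold, limma adjusted p = 3.0e-06). FBN1 on 202766_s_at gave 1.70 and 0.97. In the middle window its probe sets rose by 0.57 and 0.62 in 3D and by 0.48 and 0.61 in 2D.

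FBLN1 on 201787_at read 1.16 and 0.33 with U0126 at 24 and 48 h in 3D, against -0.08 and -0.21 with DMSO-EGF. In 2D it stood at 1.35 and 0.99 (2D03) and 0.87 and 0.79 (2D04) with U0126, against 0.06 and 0.48 (2D03) and -0.28 and -0.23 (2D04) with DMSO-EGF. It was higher in every late pair, by 0.89 in 3D (SE 0.13, 0.54 without the 24 h arrays) and by 0.99 in 2D (SE 0.15). In the middle window it was higher by 0.48 in 3D (SE 0.11) and by 0.82 in 2D (SE 0.12), where 2D03 alone gave 0.51 (limma adjusted p = 0.08).

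THBS1 was higher late in both cultures. On 201108_s_at it read 0.49 and 1.08 with U0126 in 3D, against -0.51 and -0.65 with DMSO-EGF. Its 2D arrays read 0.88 and 0.50 (2D03) and 1.42 and 1.49 (2D04) with U0126, against 0.30 and 0.02 (2D03) and 0.33 and 0.17 (2D04) with DMSO-EGF. The late change was 1.36 in 3D (SE 0.17, limma adjusted p = 3.3e-06) and 0.87 in 2D (SE 0.25, limma adjusted p = 0.018). Without the 48 h U0126 array of repeat 2 the 2D value was 0.62 (limma adjusted p = 0.19), without its 24 h array 0.73 (limma adjusted p = 0.1), and without the 24 or 48 h DMSO-EGF array of repeat 1 it was 0.86 and 0.83 (limma adjusted p = 0.051 and 0.064). The other THBS1 probe sets called late in 2D also lost their call without single arrays, 201107_s_at in 6 cases (limma adjusted p = 0.062 to 0.27) and 201109_s_at in 5 (limma adjusted p = 0.063 to 0.32).

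In the middle window THBS1 rose in 3D on 4 of 5 probe sets, by 0.89 to 1.16, and did not pass in 2D, where the series disagreed. On 201107_s_at U0126 minus DMSO-EGF was -0.69, -1.60 and -0.46 at 4, 8 and 12 h in 2D03, and -0.02, 1.02 and 0.91 in 2D04. The U0126 arrays of 2D03 at 8 and 12 h are those with the low actin signal, and its part in the THBS1 values was not tested.

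TGFBI rose by 1.06 in 3D late (SE 0.13, limma adjusted p = 5.0e-06) and by 0.64 in 2D late (SE 0.20, limma adjusted p = 0.032). It read 2.99 and 2.46 with U0126 in 3D, against 1.74 and 1.60 with DMSO-EGF. The 2D values were 1.83 and 1.54 (2D03) and 1.88 and 2.69 (2D04) with U0126, against 1.55 and 1.15 (2D03) and 1.33 and 1.36 (2D04) with DMSO-EGF. Every late pair was higher with U0126, but in 2D the value was 0.35 without the 48 h U0126 array of repeat 2 (limma adjusted p = 0.39). The 2D call was also lost without the 24 h U0126 array of repeat 1 or 2 or the DMSO-EGF array at 48 h of repeat 1 or at 24 h of repeat 2 (0.58 to 0.65, limma adjusted p = 0.069 to 0.12).

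FN1 fell late in 3D on 6 of 6 probe sets, by 0.28 to 0.80, and on 0 of 6 in 2D, where values lay between -0.36 and -0.08. In the late test of the 3D effect minus the 2D effect, FN1 passed on 214702_at only (-0.69, SE 0.12, limma adjusted p = 2.1e-05). On 214702_at it read 0.11 and 0.07 with U0126 in 3D, against 0.71 and 1.07 with DMSO-EGF, a change of -0.80 (SE 0.10, limma adjusted p = 5.9e-06). Without the 48 h arrays the other 5 probe sets did not pass, at -0.36 to -0.15 (limma adjusted p = 0.12 to 0.44). SPARC was 0.53 higher in 3D late (SE 0.20, limma adjusted p = 0.049), and it did not pass without either time (limma adjusted p = 0.16 without 24 h and 0.27 without 48 h). It did not pass in 2D late.

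**Figure D4:**
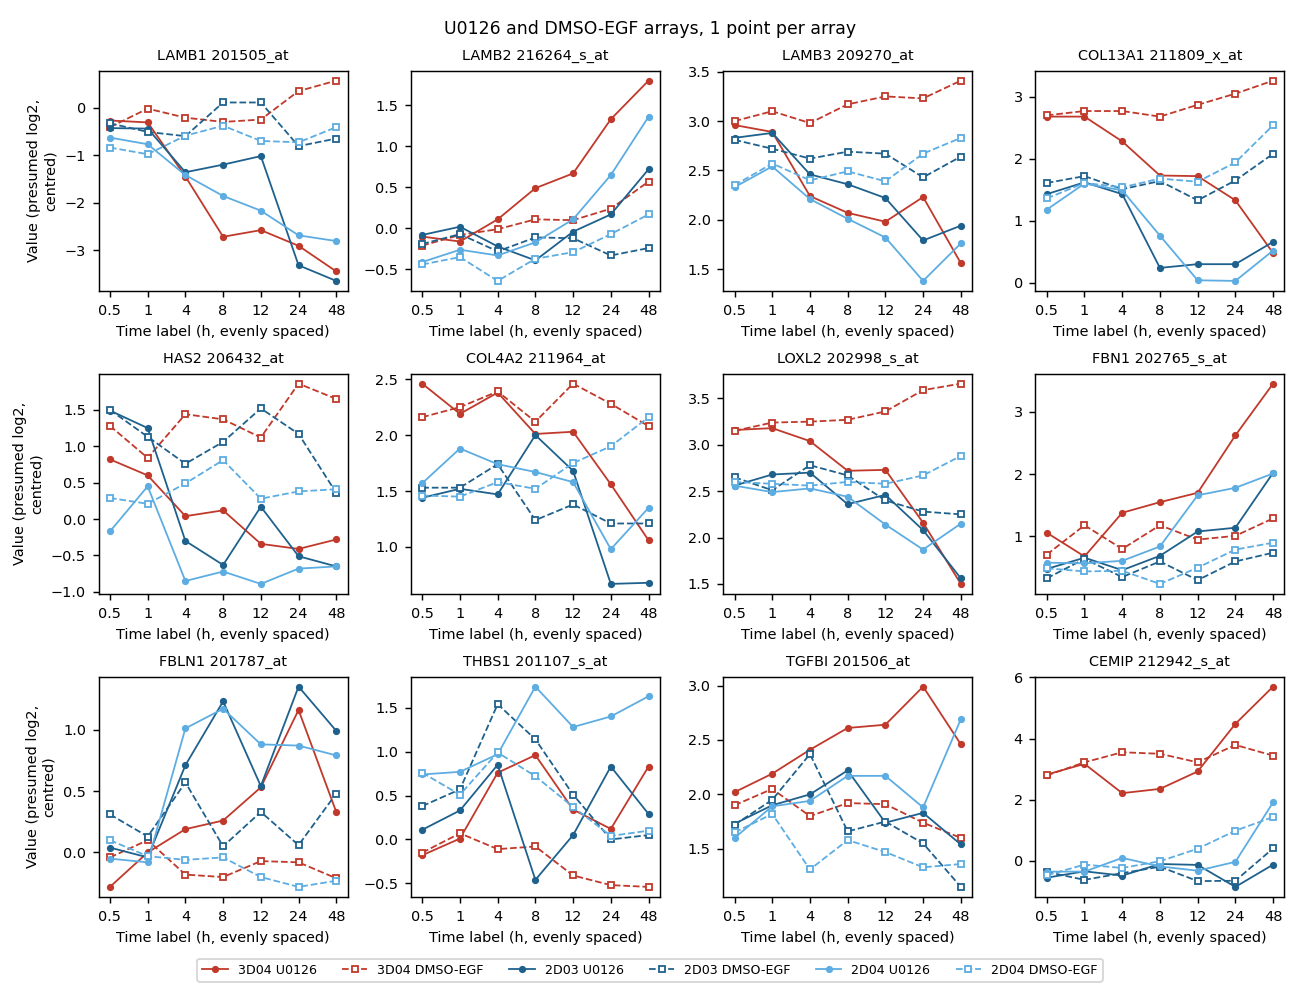
Values (presumed log2, centred) of U0126 arrays (solid lines, filled points) and DMSO-EGF arrays (dashed lines, open points) at time labels from 0.5 to 48 h, evenly spaced, for 12 member probe sets in 3D04, 2D03 and 2D04; each point is 1 array. LAMB1 falls to -3.45 with U0126 in 3D at 48 h, and CEMIP reaches 5.7 there.

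HAS2 read lower with U0126 from 4 h on in each series. It read -0.41 and -0.28 with U0126 at 24 and 48 h in 3D, against 1.86 and 1.65 with DMSO-EGF. In the 2D series it read -0.51 and -0.65 (2D03) and -0.68 and -0.65 (2D04) with U0126, against 1.17 and 0.36 (2D03) and 0.38 and 0.41 (2D04) with DMSO-EGF. The arms did not overlap, and the late change was -2.10 in 3D (SE 0.17, 4.29-fold lower, limma adjusted p = 2.0e-08) and -1.20 in 2D (SE 0.40, limma adjusted p = 0.049). That 2D call was lost without any 1 of 7 of the 8 late arrays (-1.24 to -1.0, limma adjusted p = 0.088 to 0.19). In the middle window HAS2 fell by 1.37 in 3D (SE 0.14) and by 1.36 in 2D (SE 0.33).

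CEMIP changed sign over time in 3D. On 212942_s_at U0126 minus DMSO-EGF was -1.34, -1.15, -0.30, 0.69 and 2.26 at 4, 8, 12, 24 and 48 h. It read 2.21, 2.35, 2.92, 4.48 and 5.7 with U0126 at these times, against 3.55, 3.5, 3.22, 3.79 and 3.44 with DMSO-EGF. The middle change was -0.93 (SE 0.21, limma adjusted p = 0.0059) and the late one 1.48 (SE 0.26, limma adjusted p = 1.6e-04). Neither held without single times: the middle one was -0.72 without 4 h (limma adjusted p = 0.1) and -0.82 without 8 h (limma adjusted p = 0.12), and the late one 0.69 without 48 h (limma adjusted p = 0.053) and 2.26 without 24 h. In 2D late CEMIP stood at -0.32 (SE 0.48, limma adjusted p = 0.84), with -0.20 and -0.53 at 24 and 48 h in 2D03 and -1.02 and 0.48 in 2D04.

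LOXL2 was lower late on 2 of 3 probe sets in 3D and on 1 of 3 in 2D. On 202998_s_at it read 2.16 and 1.5 with U0126 at 24 and 48 h in 3D, against 3.59 and 3.66 with DMSO-EGF. In 2D cells it read 2.08 and 1.56 (2D03) and 1.87 and 2.15 (2D04) with U0126, against 2.28 and 2.25 (2D03) and 2.67 and 2.88 (2D04) with DMSO-EGF. The change was -1.80 in 3D (SE 0.18, 3.47-fold lower, limma adjusted p = 2.1e-07) and -0.60 in 2D (SE 0.15, limma adjusted p = 0.0044). The 2D call was lost without the 48 h U0126 array of repeat 1 (-0.46, limma adjusted p = 0.059) or the 48 h DMSO-EGF array of repeat 2 (-0.45, limma adjusted p = 0.069). On 202997_s_at the LOXL2 change was -0.93 in 3D late (SE 0.18) and -0.32 in 2D late (limma adjusted p = 0.37). On 202999_s_at it was 0.12 in 3D late (limma adjusted p = 0.42) and 0.26 in 2D late (limma adjusted p = 0.073, or 0.04 with the replicate block). LOXL1 changed in 3D late only, by -0.58 (SE 0.15, limma adjusted p = 0.0044), and by -0.34 without the 48 h arrays (limma adjusted p = 0.14).

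Whether U0126 acted differently in the cultures was tested as the 3D effect minus the 2D effect. In the early window 0 members passed, against 0.0538% of all probe sets. In the middle window 5 passed, 3 higher and 2 lower (4.72%), against 1.95% of all probe sets (1.22% higher, 0.727% lower). The middle count was 0 without 8 h, 1 without 12 h and 3 without the 2D03 U0126 arrays at 8 and 12 h. In the late window 11 passed, 6 higher and 5 lower (10.4%), against 8.54% (3.68% higher, 4.86% lower), a share near the background. LOXL2 on 202998_s_at gave the smallest adjusted p late, with a difference of -1.19 (SE 0.17, limma adjusted p = 7.9e-07). For LAMB1 on 201505_at it was -1.17 (SE 0.27, limma adjusted p = 0.0019), and the rise of FBN1 was 0.90 larger in 3D on 202765_s_at (SE 0.26, limma adjusted p = 0.018). The CEMIP effect was 1.79 higher in 3D late (SE 0.35, limma adjusted p = 2.8e-04). Without 48 h these did not pass for LAMB1 (-1.02, limma adjusted p = 0.11), FBN1 (0.84, limma adjusted p = 0.19) or CEMIP (1.30, limma adjusted p = 0.084), and 3 members passed in all. For HAS2 the difference was -0.90 (SE 0.33, limma adjusted p = 0.082), and for COL13A1 on 211809_x_at -0.57 (SE 0.29, limma adjusted p = 0.27).

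EGF alone was set against untreated cells. No member passed in any window of either culture, and 0% of all probe sets did in limma. An unadjusted p under 0.05 was reached by 3, 4 and 5 members in the early, middle and late window of 3D and by 0, 2 and 0 in those of 2D. Over all 22292 probe sets it was reached by 733, 756 and 748 in 3D and by 143, 470 and 146 in 2D. The 2D fit had no replicate block, so the difference between its 2 series counted as spread and an EGF effect could be missed. Member differences lay between -0.42 and 0.41 in 3D and between -0.30 and 0.44 in 2D.

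Genes of related lists were measured beside the members. Of 25 enzymes that modify or crosslink collagen 20 were measured, by 27 probe sets. In 3D controls 13 of these probe sets were higher and 3 lower than in 2D controls, with a median of 0.11. Over all probe sets 23% were higher there and 25.1% lower. The TGF-beta signalling list had 10 probe sets higher and 8 lower of 31 there (median 0.03), and the list of other matrix genes had 8 higher and 22 lower of 93 (median -0.05). With U0126 in 3D late 5 of the enzyme probe sets were higher and 15 lower (median -0.28), and in 2D late 1 was higher and 1 lower. Over all probe sets 18.7% were higher and 16.2% lower in 3D late, and 5.38% and 5.02% in 2D late. The crosslinker LOX fell by 2.69 in 3D late on the probe set named by the rule for related lists (SE 0.43), the proline hydroxylase P4HA2 by 0.87 (SE 0.13) and the procollagen protease enhancer PCOLCE2 by 1.21 (SE 0.16). The difference between cultures in the late U0126 effect passed for 10 of these 27 enzyme probe sets, 1 higher and 9 lower, against 8.54% of all probe sets, among them P4HA2 (-1.30, SE 0.17, limma adjusted p = 1.9e-07). The TGF-beta list had 4 higher and 4 lower in that test, and the other matrix genes 6 higher and 6 lower.

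Of 31 probe sets for 16 TGF-beta signalling genes, 8 were higher and 9 lower with U0126 in 3D late, and 1 was higher and 3 lower in 2D late. The shares over all probe sets given above also apply to these counts and to those of the other matrix genes below. CCN2, a matricellular target of TGF-beta, fell by 3.01 in 3D late (SE 0.18) and by 2.36 in 2D late (SE 0.31), and the ligand TGFB2 rose by 1.52 and 1.57 in 3D late on 2 of its probe sets (SE 0.10 and 0.11). Of 93 probe sets for 52 other matrix genes, 11 were higher and 10 lower in 3D late, and 4 higher and 0 lower in 2D late. The glycoprotein tenascin C (TNC) fell by 2.58 in 3D late (SE 0.25), and matrilin 2 (MATN2) rose by 2.23 in 3D late (SE 0.20) and by 1.12 in 2D late (SE 0.26).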

How the data were processed

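RNA of MDA-MB-231 cells was measured on 96 Affymetrix arrays. Per the submitters' processing notes the authors used RMA, which returns log2 values per probe set. The deposited values, between -5 and 5.7 with array medians of -0.06 to 0.03, were therefore taken as log2. They are centred per probe set by an unstated step, so their reference is unknown, and no level between probe sets is compared. The number of arrays limits the precision. No value was filtered.

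Of 22930 probe sets 638 were array controls and 22292 were tested. Names came from the platform annotation, updated to RefSeq symbols through gene IDs: 19513 probe sets had 1 symbol, 125 had several and were not named, 3292 were not listed, and 223 of those with 1 symbol found no RefSeq match. Members and lists were chosen with earlier results of these data known.

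Tests used limma 3.58.1 under R 4.3.3, with lmFit and a trended eBayes. P-values were adjusted by Benjamini and Hochberg's method across the 22292 probe sets, and 0.05 was the threshold. Culture was fitted on the control arrays with series and time as terms (17 residual degrees of freedom). The 64 2D arrays had a mean per group (33), and in 3D the times of a window served as repeats (12). The difference between cultures used series by time terms (45). Medians over all probe sets lay between -0.04 and 0.03 in every comparison.

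Repeat numbers pair the 2D arrays through the series label: the deviations of repeats correlated between 0.197 and 0.79 (median 0.595) over 465 pairs of 31 groups. A fit with this replicate block is given where it changes a call.

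Values are given by array for the 6 highest and 6 lowest called members of the culture comparison, the 4 highest and 4 lowest of each U0126 comparison, and for COL4A1, COL4A2, FN1, SPARC, THBS1, LAMB3, LAMC1, TGFBI, HAS2 and CEMIP. Genes of other lists are named from the 4 with the smallest adjusted p. Other members named were chosen after their values were seen. Alternatives were median centring, quantile normalization, no variance trend, array weights, 1 value per gene, the replicate block, each 2D series alone, series as a random block, the other arms, and leaving out each array or time. After the data had been seen, further fits were added for single times of a window, and for 3D04 against each 2D series in the test between cultures. The procedure was tested on simulated data.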

Additional observations from a re-analysis of the deposited data

Results flagged for a closer look

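Among 4 untreated 2D arrays at 0 h, FBN1 on 202765_s_at had 1 array far below the others, at 0.26 against 0.59, 0.60 and 0.61. Such a gap appears by chance in about 1 in 20 groups of like repeats, and these 4 arrays come from both 2D series. With 106 member probe sets such gaps can arise by chance.

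The difference in U0126 effect between 3D and 2D cells passed the test in limma for these members. In the middle window the 3D effect minus the 2D effect was -0.83 for LAMB1 on 201505_at, -0.67 for LAMB3, and 1.12, 1.16 and 0.79 for THBS1 on 201108_s_at, 201109_s_at and 201110_s_at. Against 2D04 alone the LAMB1, LAMB3 and THBS1 201108_s_at and 201110_s_at calls were lost (-0.74, -0.62, 0.61 and 0.55).

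In the late window it was -1.17 and -1.12 for the LAMB1 probe sets, 0.34 for HSPG2 on 201654_s_at and 0.50 for COL1A1 on 217430_x_at. It was -0.69 for FN1 on 214702_at, 0.67 for THBS1 on 201110_s_at, 0.90 and 0.73 for the FBN1 probe sets, 1.79 for CEMIP, -0.71 for LOXL1 and -1.19 for LOXL2 on 202998_s_at.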

How the results depend on the processing

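Over 163 named values and 54 other settings, 1750 outcomes kept their direction and their side of the threshold, 303 kept the direction only and 8 turned it. Those 8 were LAMC1 200770_s_at in 3D late (0.03 without 48 h, -0.73 without 24 h, against -0.35), and in culture LAMA4 216081_at against 2D04 alone (0.01, against -0.16), LAMA4 210089_s_at in the EGF and DMSO-EGF arms (0.08 and 0.05, against -0.13), LOXL2 202999_s_at in the EGF arm (0.03, against -0.13), and in the U0126 arm THBS1 201110_s_at (0.10, against -0.47) and LAMB1 (-0.26 and -0.17, against 0.38 and 0.41). The causes were not tested. The counts that follow are of members, without the shares of all probe sets in the alternative fits. Culture calls numbered 63, and 19 with series as a random block. The late difference between cultures gave 11, 4 with quantile normalization and 6 with array weights. The middle one gave 5, 14 against 2D03 alone, 2 against 2D04 alone and 3 without the 2D03 U0126 arrays at 8 and 12 h. U0126 calls in 3D late numbered 44, and 29 with array weights. In 2D middle they numbered 10, 16 with the replicate block, 20 in 2D04 alone and 0 at 4 h alone. In 2D late they numbered 20, 33 in 2D04 alone, 10 at 24 h alone and 11 at 48 h alone. The 2D drift gave 9, 14 with array weights, 15 with the replicate block, 0 in 2D03 alone and 17 in 2D04 alone. Leaving out 1 array or time gave 56 to 61 for culture, 9 to 14 for 2D middle, 14 to 21 for 2D late, 10 to 26 for 3D middle, 31 to 36 for 3D late, 0 to 6 (middle) and 3 to 9 (late) for the difference, 6 to 11 for the drift and 0 for the early and EGF comparisons. The replicate block added LAMB3, COL4A1 211980_at (-0.42), COL1A1 202310_s_at, COL13A1 211343_s_at, FBN2 and FBLN1 207835_at in 2D middle. In 2D late it added COL4A2 211966_at (-0.56), COL5A1 203325_s_at and 212488_at (0.68 and 0.58), COL8A1 214587_at (-0.34), THBS1 201110_s_at (0.85) and LOXL2 202999_s_at (0.26), and in the drift LAMA5 (0.42), LAMB2 (0.47), HSPG2 201655_s_at (0.61), COL13A1 211343_s_at (0.61), FBN1 202765_s_at (0.42) and CEMIP 212942_s_at (1.25). It changed no other call of a member in these 3 comparisons. With 1 array per arm and time in 3D, times served as repeats there, so precision is limited by few arrays.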
